A study of Drosophila melanogaster with 2 samples.

Results

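Genes for the subunits of the proteasome were examined in a chromatin immunoprecipitation sequencing (ChIP-seq) study of the transcription factor Broad in larvae of Drosophila melanogaster. Members were all protein-coding genes whose Ensembl symbol starts with Prosalpha, with Prosbeta, or with Rpn or Rpt and a digit, which gave 48 of 13968 protein-coding genes. The core particle had 25 of them, 12 Prosalpha and 13 Prosbeta genes, and the regulatory particle had 23, 9 Rpt and 14 Rpn genes. A T or R after the digits of the symbol marks a duplicate copy, and 16 members were such copies, 11 of the core particle and 5 of the regulatory particle.

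Chromatin came from whole wandering larvae in the third instar, males and females together, of a transgenic line that makes the br-RJ product with GFP at its C-terminal end. It was sonicated to 200 to 800 bp and precipitated with an antibody to GFP. The 2 replicates, biological ones per the labels, formed 1 group, so conditions could not be compared and no test over samples was possible. Peaks had been called against a control alignment that is not analysed here. Whole animals hold many tissues, and a strong peak in a few cells and a weak one in many cannot be told apart. The labels do not say whether the larvae also made untagged Broad, and other Broad isoforms, which differ in their zinc fingers, carry no tag in the line as described.

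The proteasome degrades proteins marked with ubiquitin. Its core particle is a barrel of outer rings of alpha subunits, which gate the entrance, and inner rings of beta subunits, some of which carry the proteolytic sites. The regulatory particle caps the barrel. Its base holds the ring of Rpt ATPases, which unfold substrates, with the scaffolds and ubiquitin receptors Rpn1, Rpn2, Rpn10 and Rpn13. Its lid holds Rpn3, Rpn5, Rpn6, Rpn7, Rpn8, Rpn9, Rpn11 and Rpn12, with Sem1, whose symbol does not make it a member here. Broad is a zinc finger factor of the early response to ecdysone, the steroid that times moulting and metamorphosis, when larval tissues are broken down.

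A gene counted as bound when the optimal set had the summit of a peak no more than 1000 bp from one of the gene's start sites. This set holds the peaks the authors kept after comparing both replicates. A gene had a weak peak only when the list called on the pooled replicates had such a summit but the optimal set had none. The signal of a peak is the value that the authors' peak caller gave; its scale is not stated, and signals of the pooled list and of each replicate's own list are not on 1 scale. The optimal set was exactly the 6635 strongest of the 30000 pooled peaks, so that its lowest signal, 80.0, divides bound from weak; its median was 137. The read depth is unknown from these lists.

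The bases under 6 of the summits are shown because they are the stretches of proteasome genes with the highest signal, read 5′ to 3′ on the strand of the gene, in the release 6 (dm6) genome. Each runs up to 75 bases to either side of the summit and at most 20 bases into an exon. Capitals mark the motifs searched on both strands: TATCGATA, the DNA replication-related element (DRE), which reads the same on either strand, and TATAAA, known as the TATA box. The letters TAAACA were added after the values had been seen. They can overlap the TATA box where CA follows it. On the opposite strand the TATA box reads TTTATA. The added letters then read TGTTTA.
Rpn5, chr3R:5789207-5789348: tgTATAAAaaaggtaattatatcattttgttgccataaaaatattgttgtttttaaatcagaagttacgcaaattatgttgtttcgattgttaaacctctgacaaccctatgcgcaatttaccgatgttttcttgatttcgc
Rpt5, chr3R:23752815-23752895: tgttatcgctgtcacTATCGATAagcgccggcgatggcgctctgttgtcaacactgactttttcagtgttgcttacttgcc
Rpn11, chr2L:5059813-5059963, reverse strand: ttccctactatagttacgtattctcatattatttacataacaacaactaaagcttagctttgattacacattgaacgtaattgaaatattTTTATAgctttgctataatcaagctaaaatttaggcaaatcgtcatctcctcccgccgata
Rpn2, chr3R:29153359-29153509: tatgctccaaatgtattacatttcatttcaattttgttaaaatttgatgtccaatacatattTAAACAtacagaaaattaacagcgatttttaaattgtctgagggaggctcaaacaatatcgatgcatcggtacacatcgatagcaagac
Rpn12, chr3L:16582854-16583004: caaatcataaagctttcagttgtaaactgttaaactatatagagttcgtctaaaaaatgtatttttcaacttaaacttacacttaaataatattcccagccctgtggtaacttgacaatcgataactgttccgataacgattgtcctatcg
Rpn9, chr3R:23733067-23733217, reverse strand: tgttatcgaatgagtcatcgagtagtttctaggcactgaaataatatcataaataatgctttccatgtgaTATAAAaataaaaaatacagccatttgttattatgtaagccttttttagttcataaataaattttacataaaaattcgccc

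These windows were rich in A and T, with a GC content of 26.5% at Rpn9 to 31.8% at Rpn12, except for the 81 bases at Rpt5 with 49.4%. The Rpt5 window alone held the DRE, centred 26 bp upstream of its summit. The TATA box lay 2 bp from the summit of Rpn9, 18 bp from that of Rpn11 and 70 bp from that of Rpn5, and the Rpn12 window held none of the motifs searched. For comparison, 3 core particle genes that were not bound are shown by the 150 bases before their start sites, chosen because each of them carries the DRE there.
Prosalpha6, chr2L:10221201-10221350: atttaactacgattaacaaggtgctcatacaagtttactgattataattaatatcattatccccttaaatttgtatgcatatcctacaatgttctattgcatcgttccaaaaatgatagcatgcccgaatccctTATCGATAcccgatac
Prosbeta2, chr3L:14999801-14999950: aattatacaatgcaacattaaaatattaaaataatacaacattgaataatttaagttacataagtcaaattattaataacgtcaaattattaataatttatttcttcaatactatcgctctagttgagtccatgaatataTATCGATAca
Prosbeta6, chr3L:16610419-16610568, reverse strand: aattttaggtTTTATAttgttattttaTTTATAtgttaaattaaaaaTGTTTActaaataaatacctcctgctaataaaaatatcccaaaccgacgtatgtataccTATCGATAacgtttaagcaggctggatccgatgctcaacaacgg

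The bound proteasome genes were all of the regulatory particle, and most of them were lid genes. In all, 7 of 48 members (14.6%) were bound, against 24.3% of all protein-coding genes (3399 of 13968). The core particle had 0 of 25 bound and the regulatory particle 7 of 23 (30.4%). The order against all genes turned with the signal limit: among optimal peaks above the median signal, 2 of 23 regulatory genes (8.7%) were bound, against 15.0% of all genes. By class, 0 of 12 Prosalpha, 0 of 13 Prosbeta, 1 of 9 Rpt (11.1%) and 6 of 14 Rpn genes (42.9%) were bound. In the lid 5 of 8 genes were bound (62.5%), and in the base 2 of 10 (20%), a split made after the values had been seen. Unlike the classes, the lid and base counts leave out the duplicate copies, none of which was bound. The lid count also leaves out Sem1, which had no peak in any list. These are counts of small groups, set beside the share of all genes without a test.

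Several of the duplicate copies are known from the male germ line, and 0 of the 16 copies were bound. Without them the core particle had 0 of 14 genes bound and the regulatory particle 7 of 18 (38.9%).

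**Figure D1:**
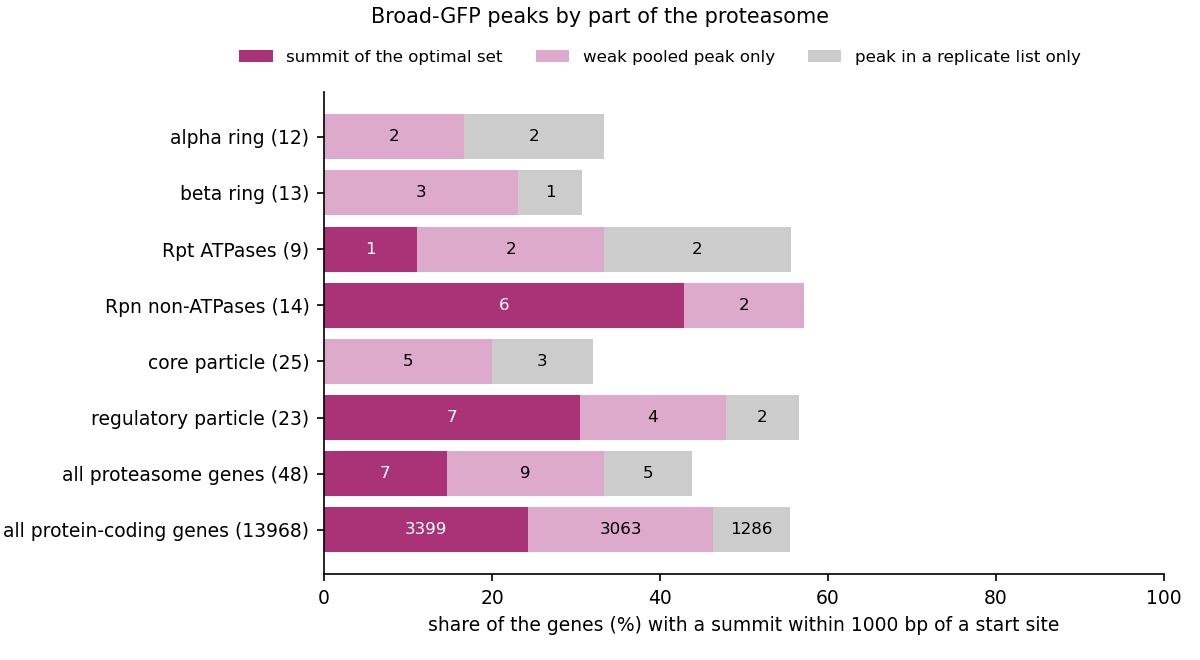
Share of the genes of each class, in percent, whose strongest evidence within 1000 bp of a start site was a summit of the optimal set (dark), a weak pooled peak only (light) or a peak in a replicate's list only (grey); numbers in the bars count genes and those in brackets give the class size. The dark share is 0 of 25 in the core particle, 7 of 23 in the regulatory particle and 3399 of 13968 in all protein-coding genes.

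The strongest of the bound members was Rpn5, which encodes a scaffold subunit of the lid. Its signal was 402 in the pooled list, 182 in replicate 1 and 211 in replicate 2, and it ranked 633 of the 6635 optimal peaks. The peak ran from 5789067 to 5789496 on 3R, with its summit 211 bp upstream of the start of Rpn5 and 102 bp inside Hat1, in an intron of that gene. Hat1, which encodes a histone acetyltransferase, starts 109 bp upstream of Rpn5 and runs the other way, so the nearest start site to this summit was that of Hat1. A second optimal summit, with a signal of 90.5, lay 2 bp upstream of the start of Rpn5 itself.

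Rpt5, an ATPase of the base whose tail docks into the alpha ring, had a signal of 284 in the pooled list, 153 in replicate 1 and 128 in replicate 2. It was the only bound Rpt gene. The summit lay 16 bp upstream of its start, in a peak of 198 bp from 23752757 to 23752954 on 3R, and the start of RanBP3, which encodes a Ran-binding protein, was 26 bp from it on the other side. Rpn5 and Rpt5 stood above 84.9% and 75.5% of the 3399 bound genes, and they were the only members above the median signal of the optimal set.

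Rpn11, the deubiquitinase that removes ubiquitin chains from substrates, had a signal of 123 in the pooled list, 59.4 in replicate 1 and 64.9 in replicate 2. Its summit lay 98 bp upstream of the start, on 2L from 5059673 to 5060102, and a weak pooled summit of 48.1 lay 312 bp upstream. Rpn2, the large scaffold of the base, had 117 in the pooled list, 66.6 in replicate 1 and 46.9 in replicate 2, with the summit 90 bp upstream of its start and 168 bp from that of Slbp, which encodes the stem-loop binding protein of histone messages. Both signals stood in the lower part of the bound genes, above 30.0% and 25.6% of them.

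The other bound lid genes lay close to the lower limit of the optimal set. Rpn12 had 97.9 in the pooled list, 44.9 in replicate 1 and 50.8 in replicate 2, with the summit 99 bp upstream of its start. Rpn9 had 96.7, 60.3 and 35.9 in the same lists, with the summit 131 bp upstream of its nearest start. Of the bound members Rpn9 had the replicates that differed most, and its summit lay in an intron of the longer Rpn9 transcript, 320 bp downstream of the most upstream start. Rpn8, the partner of Rpn11, had 88.0 in the pooled list, 44.4 in replicate 1 and 50.3 in replicate 2. Its summit was also intronic, 114 bp upstream of the nearest start and 2863 bp downstream of the most upstream one. These 3 genes stood above 14.3%, 13.3% and 7.27% of the bound genes.

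**Figure D2:**
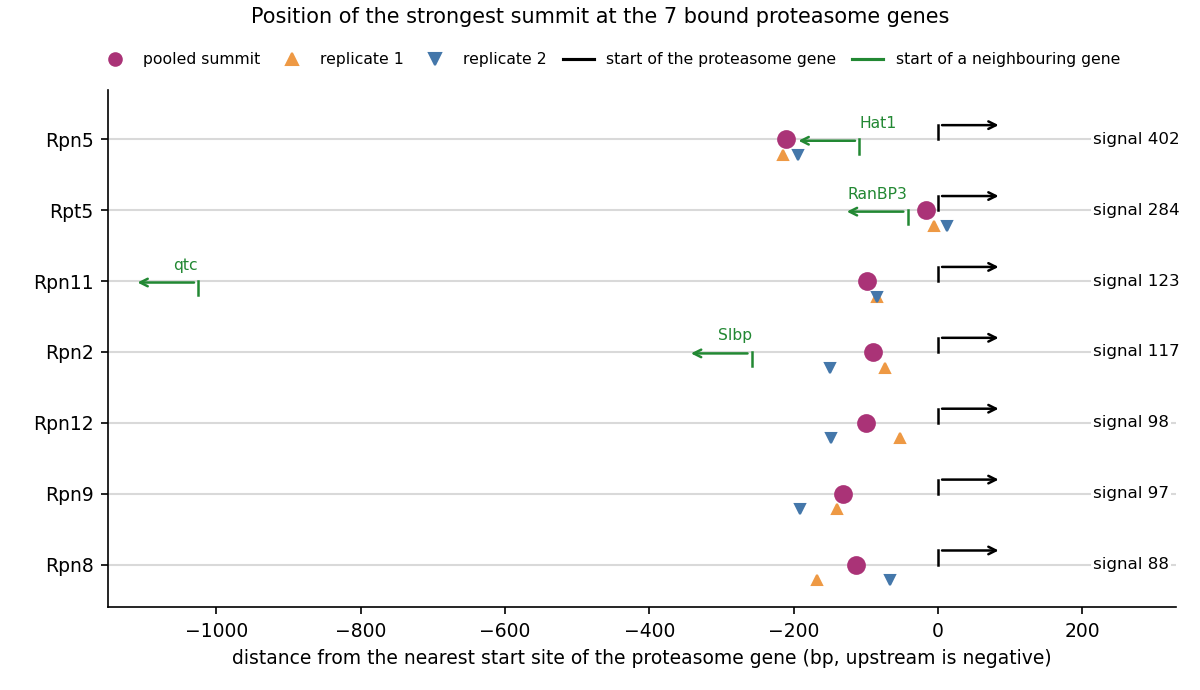
Position of the strongest summit at each of the 7 bound proteasome genes, as the distance in bp from the nearest start site of that gene (upstream is negative), with the summits of replicates 1 and 2 and the start sites of neighbouring genes that start upstream of the member's most upstream start; arrows give the direction of transcription. All 7 pooled summits lie upstream of the nearest start site, from 16 bp at Rpt5 to 211 bp at Rpn5, and those of Rpn9 and Rpn8 lie downstream of another start of the same gene, which is not drawn.

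The bound summits lay close to a start site. All 7 were upstream of the member's nearest start site, against 76.6% of the strongest summits of all bound genes, though those of Rpn8 and Rpn9 fell inside the gene. Their median distance was 99 bp, against 167 bp. The own start site was the nearest in 6 of 7 (85.7%), against 73.6% of all bound genes. In 6 of 7 (85.7%) the summit also lay within 1000 bp of the start of another protein-coding gene, against 53.5% of all bound genes, so that the gene a peak belongs to cannot be told from position alone. The median signal of the bound members was 117, against 164 for all bound genes.

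Both replicates carried the bound peaks. The authors kept the optimal set after comparing these same replicates, so much of this agreement was fixed in advance. Each of the 7 had a summit within 100 bp in the list of replicate 1 and in that of replicate 2, against 94.0% of all bound genes (3194 of 3399). Within 50 bp these were 4 of 7 (57.1%), without Rpn2, Rpn8 and Rpn9, against 77.6%. The signal was higher in replicate 1 at 3 of them and higher in replicate 2 at 4. The log2 ratio of replicate 1 to replicate 2 had a median of −0.13 and ran from −0.21 at Rpn5 to 0.75 at Rpn9. Over the 6181 optimal peaks found in both lists this ratio had an SD of 0.52, so that Rpn9 was the only bound member past 1 SD, with Rpn2 at 0.50.

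**Figure D3:**
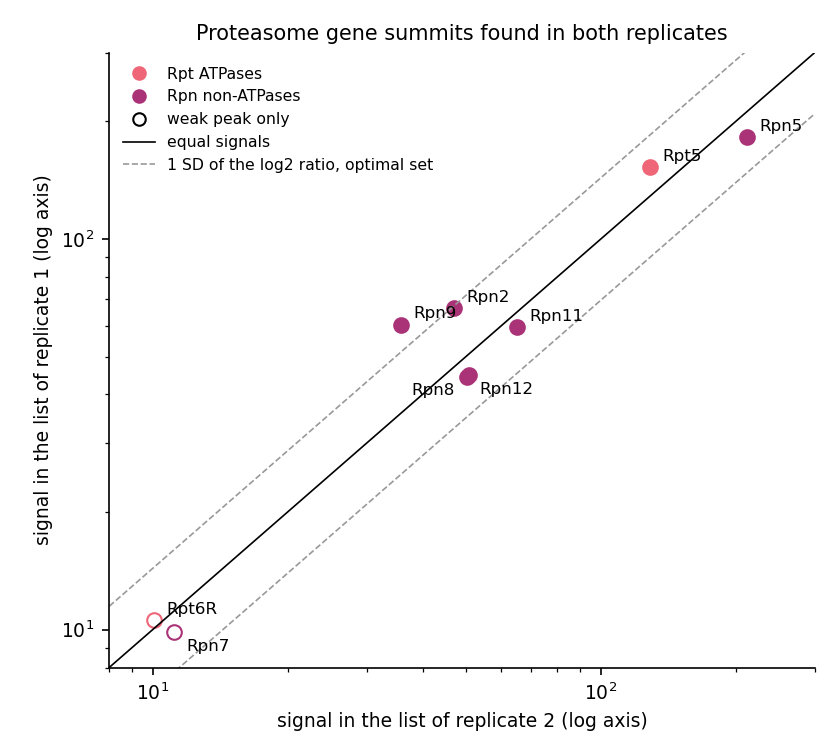
Signal in the list of replicate 1 against that of replicate 2, both on log axes, for the 9 proteasome genes whose strongest pooled summit had a summit within 100 bp in both lists; filled points are bound, open points have a weak peak only, the solid line marks equal signals and the dashed lines 1 SD of the log2 ratio over the optimal set. Rpn9 lies outside the dashed lines and the other points lie within them.

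Weak peaks were found in both particles. A weak peak only was found at 9 of 48 members (18.8%), against 21.9% of all genes (3063), and these were 5 of 25 core genes (20%) and 4 of 23 regulatory genes (17.4%). Their median signal was 25.8, against 40.7 for all genes with a weak peak only. Within 100 bp, 2 of the 9, Rpt6R and Rpn7, had a summit in both replicate lists, against 55.0% of all such genes (1684 of 3063). Within 200 bp these were 5 of 9 (55.6%), with Prosbeta2, Prosbeta6 and Rpt3 added, against 68.3%. At Prosbeta2 the summit of replicate 1 lay closer to another, weaker pooled summit. The members nearest to the limit of 80.0 were Rpn8 inside it, with a signal of 88.0 and a rank of 5929 in the pooled list, and Prosbeta1 outside it, with 59.5 and a rank of 9299.

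In the core particle the highest signal belonged to Prosbeta1, the caspase-like subunit. It had 59.5 in the pooled list, 71 bp upstream of its start, and 56.6 in replicate 1, with no summit of replicate 2 within 100 bp. The nearest start was that of Rrp42, an exosome subunit gene, 50 bp from the summit. Prosbeta2, the trypsin-like subunit, had 45.2 in the pooled list at 361 bp upstream, inside a coding exon of the neighbour mRpL39, and 24.3 in replicate 2; replicate 1 had a summit of 28.2 at 176 bp from it. Prosalpha4 had 25.8, 25 bp from the start of its divergent neighbour kat80, with no summit of either replicate within 100 bp. Replicate 1 had a summit of 19.8 at 114 bp from it, and replicate 2 had none within 200 bp. Prosbeta6 had 22.5, 24 bp upstream of its own start, and 21.2 in replicate 1; replicate 2 had a summit of 10.4 at 121 bp from it. The copy Prosalpha3T had 21.9 at 941 bp upstream and 14.1 in replicate 2. Within 100 bp 0 of these 5 core genes had a summit in both replicate lists, and within 200 bp Prosbeta2 and Prosbeta6 did.

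In the regulatory particle the ubiquitin receptor gene Rpn13 had 57.8 in the pooled list and 59.4 in replicate 1, with no summit of replicate 2 within 100 bp. That pooled summit lay 312 bp upstream of Rpn13 and 41 bp from the start of CtsL1, which encodes a cathepsin. A weaker pooled summit of 26.3 lay 5 bp downstream of the nearest start of Rpn13, in the untranslated region of Rpn13 itself. Replicate 2 had a summit of 25.5 at 18 bp downstream of the nearest start of Rpn13. Rpt3 had 40.0 at 214 bp upstream and 29.9 in replicate 2; replicate 1 had a summit of 15.5 at 166 bp from it. The copy Rpt6R had 23.5 in the pooled list, 10.6 in replicate 1 and 10.1 in replicate 2, at 47 bp upstream. Rpn7, a lid gene, had 23.0, 9.87 and 11.2 in these lists, at 487 bp upstream and 86 bp from the start of AP-2mu, an adaptor gene of clathrin coats. Over both particles the nearest start was the member's own at 3 of the 9 weak summits, at Prosbeta6, Prosalpha3T and Rpt6R. This counts the strongest pooled summit of each gene only. Weaker pooled summits lay close to the own starts of Rpn13, as given above, and of Rpt3, with 18.1 at 8 bp upstream of its nearest start.

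**Figure D4:**
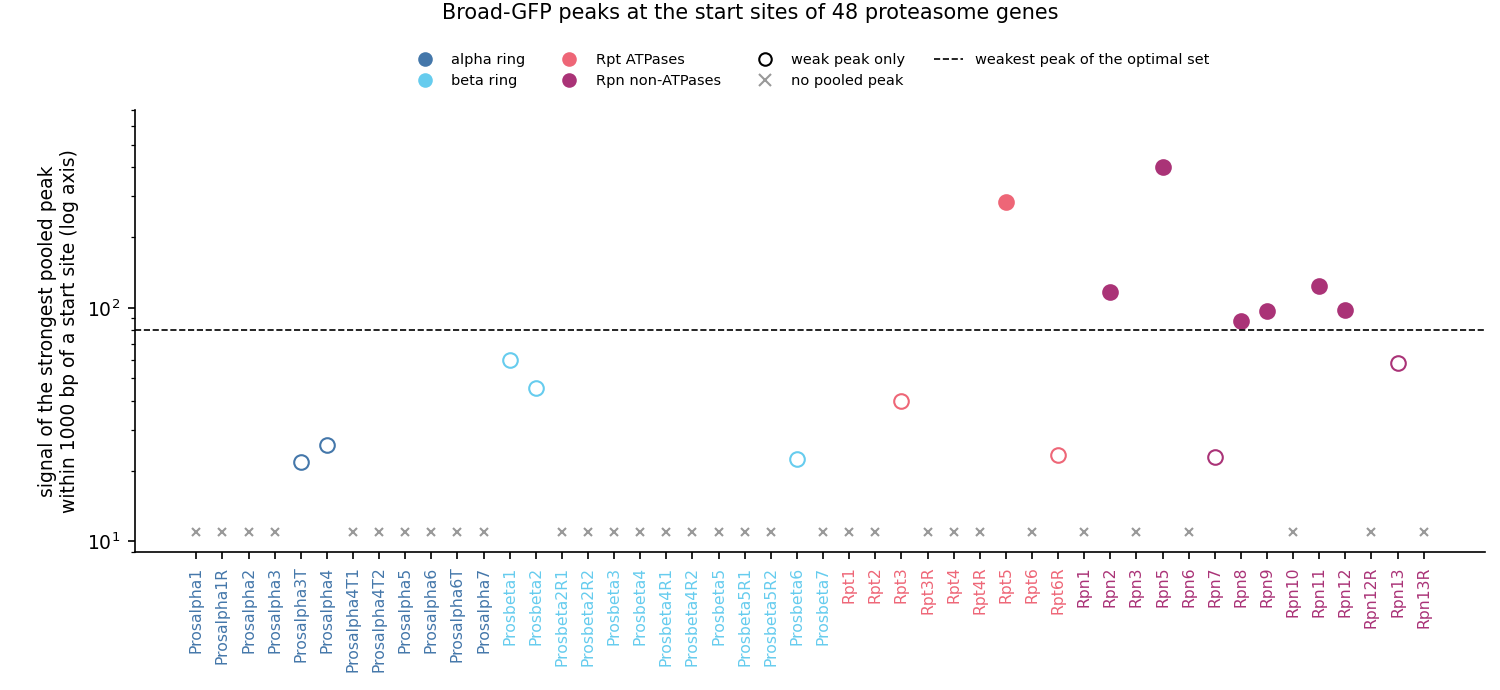
Signal of the strongest pooled peak within 1000 bp of a start site, on a log axis, for each of the 48 proteasome genes by class; filled points are bound, open points have a weak peak only, crosses at the foot mark genes with no pooled peak there, and the dashed line is the lowest signal of the optimal set, 80.0. No core gene reaches the line; the highest is Prosbeta1 at 59.5.

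A further 5 members (10.4%) had a peak in a replicate's list but none in the pooled list, against 9.21% of all genes. Each of these 5 had it in 1 replicate's list alone, while the share of all genes includes genes with a peak in both replicate lists. Replicate 1 gave 31.9 at Rpt4, 27.4 at Prosbeta7, 23.8 at Rpt6 and 11.1 at Prosalpha3, and replicate 2 gave 36.9 at Prosalpha5. No peak was found near a start site in any list at 27 of 48 members (56.2%), against 44.5% of all genes, and these were 17 of 25 core genes (68%) and 10 of 23 regulatory genes (43.5%). They included Prosbeta5, the chymotrypsin-like subunit, with Prosalpha1, Prosalpha2, Prosalpha6, Prosalpha7, Prosbeta3 and Prosbeta4 in the core particle. In the regulatory particle they were the ATPase genes Rpt1 and Rpt2, the scaffold gene Rpn1, the ubiquitin receptor gene Rpn10 and the lid genes Rpn3 and Rpn6. The others were duplicate copies, of which 14 of 16 (87.5%) had no peak in any list: Prosalpha1R, Prosalpha4T1, Prosalpha4T2, Prosalpha6T, Prosbeta2R1, Prosbeta2R2, Prosbeta4R1, Prosbeta4R2, Prosbeta5R1, Prosbeta5R2, Rpt3R, Rpt4R, Rpn12R and Rpn13R.

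Distances from the nearest start site to the nearest optimal summit were compared among the genes that were not bound. Their median was 10267 bp for members, against 10632 bp for all protein-coding genes. It was 8172 bp in the core particle and 11657 bp in the regulatory particle. The duplicate copies lay far off, at a median of 18774 bp. Without them the median was 4175 bp in the core particle and 8143 bp in the regulatory particle. The closest core gene was Prosbeta6, 1114 bp from an optimal summit.

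Core and regulatory genes also differed in how they are laid out. A divergent neighbour that starts within 1000 bp upstream was present at 13 of 25 core genes (52%) and 9 of 23 regulatory genes (39.1%), against 35.2% of all genes. Of the genes with such a neighbour, 0 of 13 in the core particle and 3 of 9 in the regulatory particle (33.3%) were bound, against 36.4% of all, while 17.8% of all genes without such a neighbour were bound. A single annotated start site was found at 23 of 25 core genes (92%) and 13 of 23 regulatory genes (56.5%), against 73.5% of all. Of the genes with 1 start site, 0 of 23 in the core particle and 5 of 13 in the regulatory particle (38.5%) were bound, against 17.5% of all. Core genes were also shorter, with a median length of 1201 bp, against 1686 bp in the regulatory particle and 2164.5 bp over all genes. The part of start sites, gene length and neighbours in the count of bound genes was not tested.

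Promoters were then searched, from 250 bases before to 50 after the most upstream start, on both strands. The DRE, a site of promoters of growth genes in flies, was present at 12 of 48 members (25.0%), against 9.36% of the 13960 promoters read. It was found at 6 of 25 core genes (24%) and 6 of 23 regulatory genes (26.1%), and at none of the 16 duplicate copies. Without the copies these were 6 of 14 core genes (42.9%), none of them bound, and 6 of 18 regulatory genes (33.3%). The DRE was present at 3 of the 7 bound members (42.9%), against 12.7% of all bound genes. These were Rpt5, Rpn12 and Rpn9, where it began 46 bp upstream, 216 bp upstream and 27 bp downstream of the most upstream start. At Rpn9 the bound summit lies 320 bp downstream of that start, outside the promoter searched. Among the members that were not bound the DRE stood at Prosalpha3, Prosalpha5, Prosalpha6, Prosbeta1, Prosbeta2, Prosbeta6, Rpn3, Rpn7 and Rpn13. The element was thus present at bound and unbound members, and it lay within 75 bp of the summit of 1 bound member, Rpt5. Of all optimal summits 2.06% had it within 75 bp.

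The other motifs were present at the following shares. TGACNNNGC, a core of the antioxidant response element to which the factor of cnc binds, was present at 6 of 48 members (12.5%), against 8.62% of all promoters, and at 0 of the 7 bound ones, against 9.47% of all bound genes. GAGAG was present at 9 members (18.8%), against 29.7% of all, and the E-box CACGTG at 0, against 4.20%. TATAAA was present at 18 members (37.5%), against 45.8%, and at 5 of the 7 bound ones (71.4%), against 42.7% of all bound genes. TAAACA was present at 21 members (43.8%), against 32.6%, and at 2 of the bound ones (28.6%), against 33.4%. At Rpn8 the promoter searched lies at the most upstream start, away from the bound summit, whose own window held none of the motifs. The promoter searched at Rpn9 also lies at the most upstream start, and its bound summit lies 320 bp downstream of that start. Within 75 bp of the optimal summits these shares were 3.93% for TGACNNNGC, 19.9% for GAGAG, 1.40% for CACGTG, 23.7% for TATAAA and 19.0% for TAAACA. The median GC content was 33.2% over the promoters of members, against 38.0% over all promoters. A match of letters is a description of the window and does not show that a factor binds there.

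Other genes of the pathway, which assemble, regulate or supply the proteasome, included several bound ones. Of 20 listed genes 19 were matched by symbol, and 8 of them (42.1%) were bound, beside 24.3% of all genes, with a further 4 (21.1%) that had a weak peak only. Among assembly and regulatory factors, Pomp, the maturation factor of the core particle, had a signal of 163 in the pooled list, 77.2 in replicate 1 and 85.4 in replicate 2. The core regulator PI31 and the activator gene REG had weak peaks of 63.4 and 36.1. Usp14 and the lid subunit gene Sem1 had no peak in any list. Uch-L5, a deubiquitinase of the regulatory particle, had summits in both replicate lists, of 57.7 and 64.1, and none in the pooled list.

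Genes of ubiquitin supply were mixed. The polyubiquitin genes were bound, Ubi-p63E with 195 in the pooled list, 108 in replicate 1 and 95.3 in replicate 2. Ubi-p5E had 138 in the pooled list, 4 bp upstream of its nearest start, and 60.2 in replicate 2. Replicate 1 had no summit within 100 bp of that pooled summit, but had one of 83.6 at 126 bp upstream of the nearest start of Ubi-p5E. The genes that encode ubiquitin fused to a ribosomal protein had a weak peak of 65.5 at RpL40 and no peak at RpS27A, and the activating enzyme gene Uba1 had a weak peak of 73.1. Of the factors that bring substrates, rngo, Pngl and Ubqn were bound, with pooled signals of 129, 91.2 and 86.0, though the nearest start to the summit of Ubqn was that of dome. TER94 and Rad23 had a peak in 1 replicate's list alone.

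The highest signals of the list belonged to the transcriptional regulators of proteasome genes known from flies and mammals. At cnc, which encodes the Nrf factor of flies, the signal was 451 in the pooled list, 241 in replicate 1 and 220 in replicate 2, and cnc has 10 annotated start sites. At Keap1, which encodes its inhibitor, it was 473 in the pooled list, 259 in replicate 1 and 222 in replicate 2, but the summit lay 879 bp upstream and the nearest start was that of kuk. Both stood above Rpn5, the strongest subunit gene, at 402. Their partner maf-S had a peak in the list of replicate 2 alone, at 59.6.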

How the data were processed

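Peak lists on dm6 were used: 1 per replicate and 1 of the pooled replicates, with 30000 peaks each, and the optimal set. The signal of each peak is the value the authors deposited. The deposited −log10 q values stop at 4.02 in the pooled list and the optimal set, 4.087 in the list of replicate 1 and 3.978 in that of replicate 2, and entered no comparison. The aligner, the caller and the cutoff behind the optimal set are not stated in these sources. The dm3 lists were not used.

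Start sites came from Ensembl release 115 (BDGP6.54) and sequence from the RefSeq release 6 genome. Summits were assigned with Python 3.11.15 and plotted with matplotlib 3.10.9, and the assignment was tested on simulated data. The signal of a replicate at a pooled summit is that of its nearest summit within 100 bp. Every member was named, and for the other lists all bound genes; neighbours were named where they start upstream of the member, and some are not reported here. Alternatives changed the window, the start sites, the assignment, the signal limit and the list used.

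The members, lists and motifs were chosen with earlier results of these data known. The lid and base split, TAAACA and the lists of other complexes were added after their values had been seen.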

Additional observations from a re-analysis of the deposited data

How the results depend on the processing

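The count of bound members stayed within 1.5 times its value, at 6 to 9 of 48 against 7, under each alternative window, start site rule, assignment and replicate list tried, but not under a higher signal limit. Apart from that limit, 12.5% to 18.8% of members were bound under these alternatives, against 18.8% to 29.5% of all genes. Counting only optimal peaks above the median signal left 2 bound members, Rpn5 and Rpt5, both of the regulatory particle (2 of 23, 8.7%), against 15.0% of all genes, so that its share turned from above to below that of all genes. The core particle had 1 bound gene, Prosbeta6, with a window of 2000 bp, under which 29.5% of all genes were bound. With the 6635 strongest peaks of 1 replicate in place of the optimal set, the core particle had 0 to 1 bound gene and all members 6 to 9. Of all genes, 24.7% were then bound with the list of replicate 2 and 25.5% with that of replicate 1. The list of replicate 2 lost Rpn9, and that of replicate 1 added Prosbeta1 and Rpn13. Using the most upstream start site alone lost Rpn8. Members with a weak peak only fell to 5 when a summit went to the gene of the nearest start and to 4 among pooled peaks above their median signal, against 9. No share of all genes under the same settings stands beside these weak counts. Of the 16 members with a pooled summit, 6 had a summit in both replicate lists within 50 bp, 9 within 100 bp and 12 within 200 bp; the losses at 50 bp were bound members and the gains at 200 bp members with a weak peak. No paired analysis was possible because there is 1 group only. Depth is unknown, so a missing peak does not show that Broad was absent.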

Other observations

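Other complexes built partly of relatives of the lid subunits were looked up after the values of the lid had been seen. Of 9 genes of the COP9 signalosome, which removes Nedd8 from cullins, 1 was bound (11.1%), alien, the CSN2 gene, with a signal of 126 in the pooled list, 64.8 in replicate 1 and 62.4 in replicate 2. The nearest start to that summit was that of CG18661. CSN8 and CSN7 had weak peaks of 57.8 and 21.2. Of 16 genes of the translation initiation factor eIF3, 3 were bound (18.8%): eIF3h with 459, eIF3m with 160 and eIF3d1 with 80.3, and 11 had no peak in any list. Unlike the lid count, the eIF3 count keeps copies, eIF3d2, eIF3f2 and eIF3g2, which had no peak. The COP9 count likewise keeps both CSN1a and CSN1b, neither of them bound. Beside these counts stand 5 of 8 lid genes (62.5%, without the unbound copy Rpn12R and without Sem1, which had no peak) and 24.3% of all genes, with no test.

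The pooled list missed some places that both replicates held. Among the 6635 strongest peaks of each replicate, 4784 summits of replicate 1 had a summit of replicate 2 within 100 bp, and 42 of these (0.878%) had no summit of the pooled list within 200 bp. Uch-L5 was near 1 of them, and 0 of 48 proteasome genes were. At 6 of 48 members a strong summit was shared by both replicates in this sense, 0 of them in the core particle. The 0.878% is a share of summits, and no share of all genes stands beside these counts of members. They are therefore not read as a trait of the proteasome genes. At eIF3a the replicates had summits of 136 and 116 at 69 and 65 bp upstream of the start, while the strongest pooled summit there was 40.3, 242 bp upstream.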
